A study of Mus musculus with 10 samples.

Results

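The glycolysis, pyruvate and pentose phosphate genes are 36 genes that carry glucose into the cell, split it to pyruvate, send pyruvate to lactate or to the mitochondrion, or divert glucose 6-phosphate into the pentose phosphate pathway. They were taken by gene symbol from the deposited table of 54532 genes, in which they fill 37 entries because the symbol Aldoa occurs at 2 neighbouring places. The table holds bulk RNA-sequencing of whole lungs at P14 from wild-type C57/BL6 pups of either sex operated on at P7, from 5 IncPBF and 5 sham pups. In the IncPBF group a suture needle was passed from the abdominal aorta into the inferior vena cava to leave a fistula, which raises pulmonary blood flow. Sham pups had the same anesthesia and laparotomy without the puncture. No transgene or drug was used in these lungs, and sex, litter, sequencing batch and date of surgery are not in the labels. Sex-linked expression, given below, showed that the groups were not balanced for sex. The comparison asks whether this arm of carbon metabolism differs between lungs that received more blood for 1 week during alveolar development and lungs that did not.

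Glycolysis turns 1 molecule of glucose into 2 of pyruvate in the cytosol. Lactate dehydrogenase then reduces pyruvate to lactate, which leaves the cell through monocarboxylate transporters, or pyruvate dehydrogenase makes acetyl-CoA from it for the tricarboxylic acid cycle. Pyruvate dehydrogenase kinases phosphorylate and switch off pyruvate dehydrogenase, and so spare pyruvate. The pentose phosphate pathway supplies NADPH and ribose 5-phosphate, and the lung uses NADPH for fatty acid synthesis in surfactant-making cells and for defence against oxidants. Several genes of glycolysis are textbook targets of the hypoxia-inducible factors.

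Values are FPKM, fragments scaled to gene length and to a divisor for each lung. The fragments behind them were recovered exactly, and each lung had 16103423 to 20318525 fragments on genes. The divisor was not this total. As a ratio to the total, it ran from 0.958 (lung 5) to 1.03 (lung 3) among sham lungs. IncPBF lungs had higher ratios with some overlap, from 1.02 (lung 5) to 1.07 (lung 4). What set the divisor was not tested. Scaling every lung to the same total moved the median log2 fold change over all genes tested from 0.01 to 0.09. Genes with a mean of at least 0.5 FPKM were tested with limma on log2(FPKM + 0.1), and p values were adjusted over all 15388 genes tested. A gene was called at an adjusted p under 0.05. Where a pair of values is joined by "against", the IncPBF group comes first, and ± gives the SD of 5 lungs. The pseudocount of 0.1 lowers the log2 fold changes of genes near 1 FPKM. In lung 1 of the IncPBF group Xist was 0.0144 FPKM and the Y-linked Ddx3y 18.6 FPKM. In IncPBF lungs 2 to 5 Xist was 52.4 to 66.5 FPKM and Ddx3y at most 0.00926 FPKM, and all 5 sham lungs had Xist at 0.077 FPKM or less and Ddx3y at 21.8 to 24.6 FPKM. By these genes IncPBF lungs 2 to 5 were female, and IncPBF lung 1 and all 5 sham lungs were male. Sex and group therefore part only in IncPBF lung 1, the single lung that can be set against the sham lungs without that difference. In the other IncPBF lungs effects of surgery and of sex cannot be told apart.

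The expression of the genes differed little between the groups as a set, with 1 large exception. In bulk lung, fewer cells of a type and less RNA per cell cannot be told apart. Of the 37 entries, 36 were tested and 13 were called, 8 higher and 5 lower in the IncPBF group. That is 36.1% of those tested, against 32.3% of all genes tested, so the share of calls was close to that of the table as a whole. By direction the background was 16.1% called higher and 16.2% called lower. The median log2 fold change of the entries was 0.02 against 0.01 over all genes tested, and the median size of the change was 0.20 in both. Pdk4, a kinase that switches off pyruvate dehydrogenase, fell by 2.28 on the log2 scale, and the other 12 called entries differed by at most 0.63. In 9 tested entries the groups did not overlap, 6 higher and 3 lower, against 23.2% of all genes tested. In all 13 called entries IncPBF lung 1 lay beyond the range of the sham lungs on the side of the group difference. It did so for 91.8% of all called genes. Lung 1 was itself among the lungs that decided the calls, so its place is not separate support for them. With each lung left out in turn, 6 to 10 entries were called higher and 3 to 6 lower, with 3 lower without IncPBF lung 1, without IncPBF lung 4 or without sham lung 5. After scaling every lung to the same total, 12 entries were called higher and 3 lower, beside 23.1% higher and 11.6% lower among all genes tested. With log2 Xist FPKM as a covariate 0 entries were called higher and only Pdk4 lower (limma adjusted p = 0.00831), where 4.82% of all genes tested were called, 2.13% higher and 2.68% lower. In that fit the errors were wider and all 13 called entries kept their sign. The log2 fold change of Ldha was 0.38 (SE 0.10, from 0.06 without the covariate, limma adjusted p = 0.0624), that of Pdk2 -0.48 (SE 0.14, from 0.08, adjusted p = 0.0717) and that of Pgk1 0.24 (SE 0.08, from 0.05, adjusted p = 0.135), while that of Eno1 was 0.16 and that of Pfkfb3 -0.32. The group difference in that fit rests mainly on IncPBF lung 1. Its log2 difference from the sham mean was 0.39, -0.50, 0.24, 0.16 and -0.33 for Ldha, Pdk2, Pgk1, Eno1 and Pfkfb3. The kept signs thus repeat the place of that lung beyond the sham range. Neither they nor the lost calls show whether these differences were present or absent apart from sex.

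**Figure D1:**
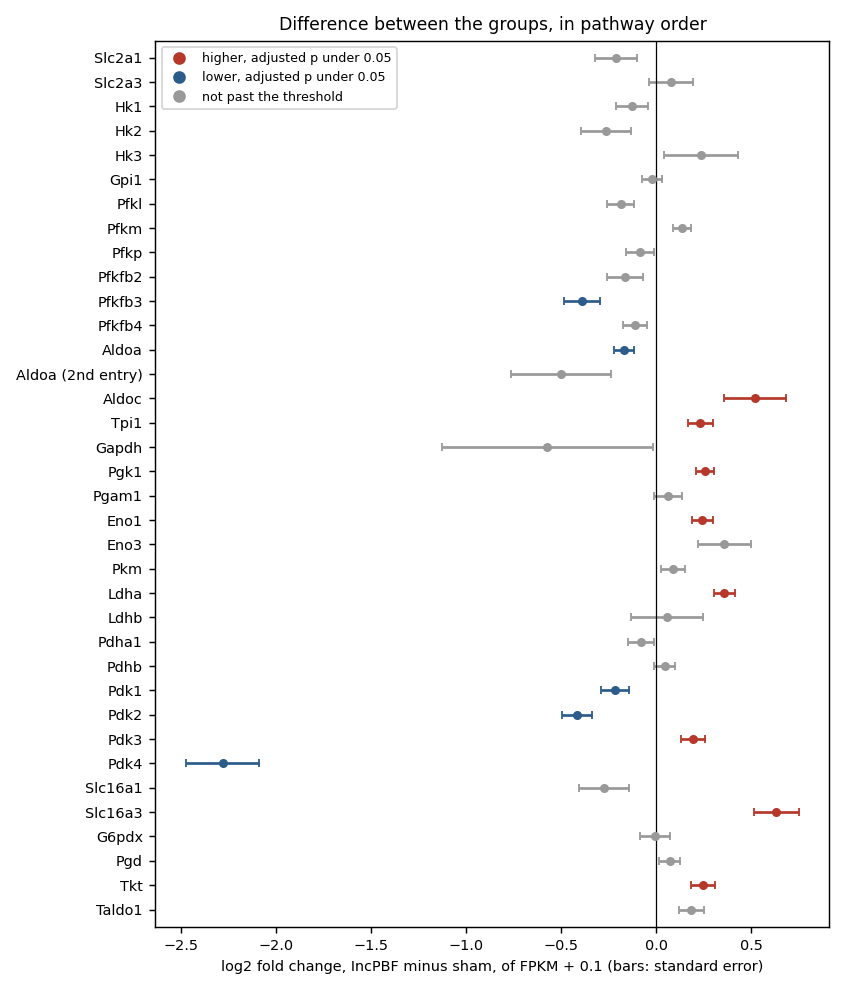
Log2 fold change of each tested entry in limma (x axis, IncPBF minus sham, on log2(FPKM + 0.1)), in pathway order from glucose entry at the top, with bars of 1 standard error. Red points are the 8 entries called higher, blue points the 5 called lower, and Pdk4 at -2.28 stands apart from the others.

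By position in the pathway, 1 of the 12 entries from glucose transport to the phosphofructokinases was called, and it was lower. Of the 10 tested entries from aldolase to pyruvate kinase, 4 were called higher and 1 lower. Of the 4 genes of lactate formation and transport, 2 were called higher and 0 lower. Of the 6 genes of pyruvate dehydrogenase and its kinases, 1 was called higher and 3 lower, and of the 4 pentose phosphate genes 1 was called higher and 0 lower. Over all genes tested 16.1% were called higher and 16.2% lower, and no block was tested against that background or against another block. The median log2 fold changes of these blocks were -0.12, 0.16, 0.21, -0.15 and 0.13.

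Promoter sequence is shown for 7 of the 8 called genes whose groups did not overlap, 4 higher and 3 lower, that is, for all of them but Tkt. Each window runs from 250 bases before to 50 bases after the RefSeq start nearest to the gene's 5′ end in the table, on GRCm38.p6 and written 5′ to 3′. For Ldha that start lies 4329 bases inside the table's gene, and for Slc16a3 587 bases inside it. Capitals mark the core letters bound by hypoxia-inducible factors, ACGTG or GCGTG on either strand, and overlapping matches are merged. The E-box CACGTG holds ACGTG on both strands and is counted as 2 matches.
Ldha promoter, chr7:46845554-46845853, plus strand: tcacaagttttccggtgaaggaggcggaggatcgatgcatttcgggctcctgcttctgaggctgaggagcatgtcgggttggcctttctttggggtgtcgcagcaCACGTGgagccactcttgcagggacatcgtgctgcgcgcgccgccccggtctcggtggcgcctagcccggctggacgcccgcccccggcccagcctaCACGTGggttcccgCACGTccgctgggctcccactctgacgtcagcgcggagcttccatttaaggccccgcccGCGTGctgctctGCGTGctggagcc
Pgk1 promoter, chrX:106186850-106187149, plus strand: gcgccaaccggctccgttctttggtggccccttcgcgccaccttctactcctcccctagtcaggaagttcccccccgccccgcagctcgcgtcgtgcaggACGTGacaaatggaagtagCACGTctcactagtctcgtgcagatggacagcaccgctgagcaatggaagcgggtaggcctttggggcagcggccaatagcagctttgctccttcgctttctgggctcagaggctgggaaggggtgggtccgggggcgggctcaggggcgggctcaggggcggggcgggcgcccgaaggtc
Eno1 promoter, chr4:150236458-150236757, plus strand: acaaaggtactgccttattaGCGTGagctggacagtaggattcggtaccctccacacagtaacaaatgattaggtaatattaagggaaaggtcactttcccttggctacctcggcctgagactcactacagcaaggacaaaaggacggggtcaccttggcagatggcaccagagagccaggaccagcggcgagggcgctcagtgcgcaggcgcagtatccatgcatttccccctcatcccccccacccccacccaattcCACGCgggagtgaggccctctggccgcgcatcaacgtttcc
Slc16a3 promoter, chr11:120948817-120949116, plus strand: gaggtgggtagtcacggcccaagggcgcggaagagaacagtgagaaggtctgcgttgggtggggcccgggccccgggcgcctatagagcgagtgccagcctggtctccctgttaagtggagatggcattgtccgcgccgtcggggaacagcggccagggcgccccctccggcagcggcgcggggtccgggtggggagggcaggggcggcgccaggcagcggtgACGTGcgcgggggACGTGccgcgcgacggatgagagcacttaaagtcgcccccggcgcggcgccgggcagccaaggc
Pfkfb3 promoter, chr2:11553880-11554179, minus strand: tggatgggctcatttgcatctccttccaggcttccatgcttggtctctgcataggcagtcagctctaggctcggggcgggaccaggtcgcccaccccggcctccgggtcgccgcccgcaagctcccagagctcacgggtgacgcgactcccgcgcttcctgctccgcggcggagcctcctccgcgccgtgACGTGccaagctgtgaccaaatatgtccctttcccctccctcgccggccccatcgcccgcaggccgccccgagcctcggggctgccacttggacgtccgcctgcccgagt
Pdk2 promoter, chr11:95041322-95041621, minus strand: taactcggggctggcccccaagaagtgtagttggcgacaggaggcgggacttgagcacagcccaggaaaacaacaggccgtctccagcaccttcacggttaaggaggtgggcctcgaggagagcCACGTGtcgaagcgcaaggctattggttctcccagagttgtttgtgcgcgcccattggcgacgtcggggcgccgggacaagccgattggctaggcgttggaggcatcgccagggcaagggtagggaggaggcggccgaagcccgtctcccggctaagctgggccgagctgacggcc
Pdk4 promoter, chr6:5496229-5496528, minus strand: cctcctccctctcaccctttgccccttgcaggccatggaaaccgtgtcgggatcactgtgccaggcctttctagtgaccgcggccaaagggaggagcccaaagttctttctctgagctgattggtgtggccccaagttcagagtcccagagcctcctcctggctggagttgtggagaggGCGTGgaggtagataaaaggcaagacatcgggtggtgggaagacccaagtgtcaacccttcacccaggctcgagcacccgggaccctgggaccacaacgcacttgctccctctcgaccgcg
Ldha held 7 matches, Pgk1, Eno1, Slc16a3 and Pdk2 held 2 each, and Pfkfb3 and Pdk4 held 1 each. The core was thus present above genes that were higher and above genes that were lower. A window was found for 35 of the 36 symbols, and 29 of these windows held the core, against 43.8% of all 32851 RefSeq windows of this length. The 29 include Pfkfb2, for which the start used lies 13205 bases from the gene's 5′ end in the table. Both core words hold the letters CG, and the windows were not matched for base composition. The higher share among the members was therefore not tested as an enrichment. CACGTG stood in 4 of the 35 windows (Pfkm, Ldha, Pdk2 and Slc16a1) and in 7.15% of all windows. The forkhead letters TGTTTAC stood in 0 of the 35 and in 3.65% of all windows. These are matches of letters in short windows and not measured binding.

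The level of each gene by lung shows a wide range, with Ldha highest in the IncPBF lungs and Aldoa highest in the sham lungs. Eno2 had the lowest mean in the IncPBF and in the sham group, though not the lowest value in every lung. Of the 37 entries, 19 had a mean above 10 FPKM. Summed over all entries the level was 682 to 719 against 659 to 698 FPKM, so the groups overlapped.

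**Figure D2:**
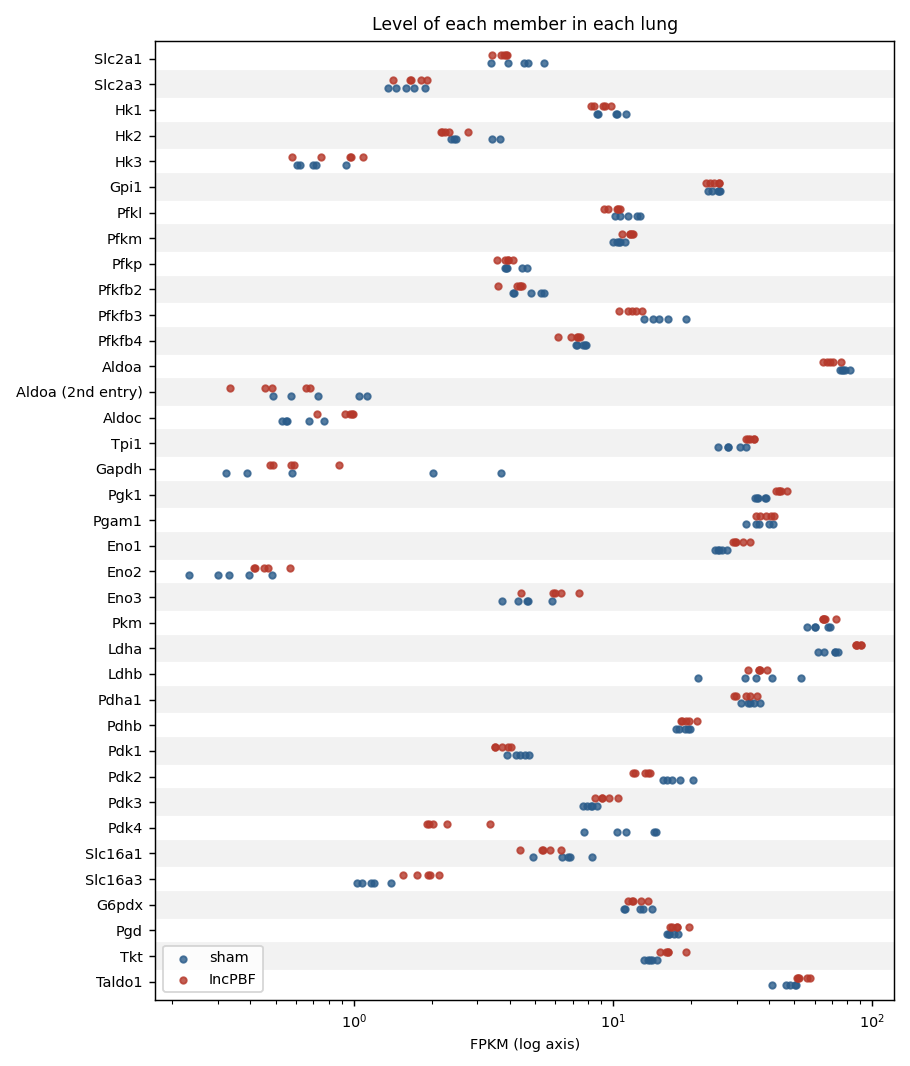
FPKM of each entry (log axis) in each of the 5 IncPBF lungs (red) and 5 sham lungs (blue), in pathway order. The groups overlap in most rows, Pdk4 is the row in which they lie farthest apart, and Gapdh spreads from 0.321 to 3.68 FPKM.

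GLUT1 and GLUT3 are facilitative transporters that carry glucose into cells. Slc2a1, which encodes GLUT1, was 3.89, 3.70, 3.88, 3.79 and 3.42 FPKM in IncPBF lungs 1 to 5 and 5.42, 4.71, 3.94, 3.39 and 4.54 FPKM in sham lungs 1 to 5. Sham lung 4 was below all IncPBF lungs, and every other sham lung was above all of them. The log2 fold change was -0.21 (SE 0.11) and was not called (limma adjusted p = 0.161), except without sham lung 4 (adjusted p = 0.0285). Slc2a3, the GLUT3 gene, was 1.41 to 1.91 against 1.36 to 1.88 FPKM and was not called.

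Hexokinases trap glucose in the cell as glucose 6-phosphate. Hk1, the housekeeping form, was 8.99 ± 0.668 against 9.85 ± 1.11 FPKM (SD, n = 5 each). Hk2, the inducible form of muscle, fat and growing cells, was 2.34 ± 0.246 against 2.87 ± 0.611 FPKM, and its log2 fold change of -0.27 was not called (limma adjusted p = 0.152). Hk3, a form of myeloid cells, was 0.58 to 1.08 against 0.605 to 0.938 FPKM. Hk1 made up 73.6% ± 2.49 against 73.4% ± 2.48 of the summed hexokinase FPKM (SD, n = 5 each). None of the 3 hexokinases was called. Gpi1, which turns glucose 6-phosphate into fructose 6-phosphate, was 24.4 ± 1.20 against 24.8 ± 1.14 FPKM, with a log2 fold change of -0.02 that turned to 0.06 with an equal total per lung.

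Phosphofructokinase is the committed step of glycolysis and exists as liver, muscle and platelet forms. The liver form Pfkl was 9.59, 10.4, 10.6, 9.20 and 10.4 FPKM in IncPBF lungs 1 to 5 and 11.4, 12.3, 10.7, 10.2 and 12.7 FPKM in sham lungs 1 to 5. The muscle form Pfkm was 11.6, 12.0, 11.9, 11.7 and 10.8 FPKM in the IncPBF lungs and 10.03, 11.2, 10.3, 10.6 and 10.6 FPKM in the sham lungs. Each gene alone overlapped between the groups and missed the threshold, with log2 fold changes of -0.19 for Pfkl (limma adjusted p = 0.0663) and 0.13 for Pfkm (adjusted p = 0.0534). Pfkl was called without sham lung 4 (adjusted p = 0.0308) and in a fit with the lung number as a block (0.0458). Pfkm was called without IncPBF lung 5 (0.0354), without sham lung 2 (0.0424), with an equal total per lung (0.00861) and after quantile normalization (0.0332). Their shares of the summed phosphofructokinase FPKM did not overlap. Pfkm made up 43.2% to 47.7% against 38.2% to 43.0%, and Pfkl 37.6% to 41.4% against 41.5% to 45.8%, with a narrow gap in both. The platelet form Pfkp was 3.89 ± 0.195 against 4.14 ± 0.388 FPKM (SD, n = 5 each) and was not called. The family as a whole was 25.5 ± 0.862 against 26.1 ± 1.44 FPKM, so the sum overlapped between the groups.

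The PFKFB enzymes make and break fructose 2,6-bisphosphate, the strongest activator of phosphofructokinase. Pfkfb3 (ENSMUSG00000026773, chromosome 2 from 11471433 to 11554077), the form with the highest kinase activity, was 12.2, 12.9, 11.4, 10.6 and 11.8 FPKM in IncPBF lungs 1 to 5. In sham lungs 1 to 5 it was 19.1, 14.99, 13.2, 14.3 and 16.3 FPKM. All 5 IncPBF lungs were below all 5 sham lungs. The log2 fold change was -0.39 (SE 0.09, limma adjusted p = 0.00943), and an exact permutation test gave p = 0.00794, the smallest that 5 lungs against 5 allow. With each lung left out it stayed between -0.45 and -0.31. Pfkfb2, a form first described in heart, was 3.59 to 4.47 against 4.10 to 5.42 FPKM, and Pfkfb4 was 6.14 to 7.44 against 7.21 to 7.88 FPKM. Neither was called, and the summed level of the 3 genes was 21.9 to 24.0 against 25.7 to 32.3 FPKM.

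Aldolase splits fructose 1,6-bisphosphate into 2 triose phosphates. Aldoa (ENSMUSG00000030695, chromosome 7 from 126795234 to 126800751), the main form, was 64.4, 66.8, 75.6, 68.8 and 70.3 FPKM in the IncPBF lungs and 76.5, 81.8, 74.8, 77.2 and 78.6 FPKM in the sham lungs. The groups met at IncPBF lung 3 and sham lung 3. The log2 fold change was -0.17 (SE 0.05, limma adjusted p = 0.0296), and the call was lost without IncPBF lung 1, 2 or 4 or sham lung 2 or 5, with an adjusted p of up to 0.0736. With an equal total per lung its log2 fold change was -0.09 and was not called. The second Aldoa entry (ENSMUSG00000114515, from 126800790 to 126809108 on the same strand) had 5 to 17 fragments per lung, at 0.52 ± 0.144 against 0.794 ± 0.284 FPKM, and was not called. Aldoc, a form best known from brain, was 0.967, 0.720, 0.995, 0.924 and 0.989 FPKM in the IncPBF lungs and 0.546, 0.553, 0.765, 0.673 and 0.528 FPKM in the sham lungs. It rose by 0.52 on the log2 scale (SE 0.16, limma adjusted p = 0.0322) with an overlap of 1 lung per group, and the call was lost without IncPBF lung 1, 3, 4 or 5 or sham lung 1, 2 or 5. It rests on 30 to 67 fragments per lung, and its share of the summed aldolase FPKM was 1.31% ± 0.154 against 0.785% ± 0.151 (SD, n = 5 each).

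Between triose phosphate and pyruvate, Tpi1, Pgk1 and Eno1 rose. Tpi1, triose phosphate isomerase, was 33.0, 35.0, 33.9, 32.5 and 34.8 FPKM in the IncPBF lungs and 25.3, 32.7, 30.9, 27.9 and 27.8 FPKM in the sham lungs. Only sham lung 2 reached the IncPBF range. Tpi1 rose by 0.23 (SE 0.07, limma adjusted p = 0.0222) and lost its call only without IncPBF lung 2 (adjusted p = 0.0524) among the left-out lungs. Pgk1 (ENSMUSG00000062070, chromosome X from 106187100 to 106203699), phosphoglycerate kinase, the first enzyme of glycolysis that returns ATP, was 43.7, 44.3, 43.7, 42.4 and 46.7 FPKM in the IncPBF lungs. In the sham lungs it was 36.03, 38.4, 38.8, 35.4 and 36.2 FPKM. The groups did not overlap, IncPBF lung 1 stood within the other IncPBF lungs, and the log2 fold change was 0.26 (SE 0.05, limma adjusted p = 0.00191). Pgam1, phosphoglycerate mutase, was 38.8 ± 2.58 against 37.3 ± 3.55 FPKM (SD, n = 5 each) and was not called.

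Enolase makes phosphoenolpyruvate. Eno1 (ENSMUSG00000063524, chromosome 4 from 150236721 to 150248879), the general form, was 28.9, 29.7, 33.8, 29.5 and 31.7 FPKM in the IncPBF lungs and 24.8, 27.5, 25.5, 25.6 and 26.3 FPKM in the sham lungs. All 5 IncPBF lungs were above all 5 sham lungs, with a log2 fold change of 0.24 (SE 0.05, limma adjusted p = 0.00602). The muscle form Eno3 was 4.43 to 7.37 against 3.72 to 5.84 FPKM, a log2 fold change of 0.36 that missed the threshold (limma adjusted p = 0.0695). It was called without IncPBF lung 5 (adjusted p = 0.0178), without sham lung 4 (0.0277), with an equal total per lung (0.0464) and in the blocked fit (0.0203). The neuronal form Eno2, at 0.414 to 0.567 against 0.232 to 0.486 FPKM, was the entry under the filter and was not tested. Cardiac muscle markers, which share tissue with Eno3, summed to 32.4 to 98.0 against 7.53 to 46.2 FPKM with 0 of 5 tested genes called. Most of this sum was Actc1, at 31.3 to 79.7 against 6.42 to 43.3 FPKM. Skeletal muscle markers summed to 1.46 to 10.9 against 1.27 to 2.15 FPKM with 0 of 3 tested genes called. The part of either list in Eno3 was not tested. Pkm, pyruvate kinase, was 66.4 ± 3.40 against 62.5 ± 5.31 FPKM (SD, n = 5 each) and was called only with an equal total per lung (log2 fold change 0.17, limma adjusted p = 0.0390). The table counts whole genes and cannot part the M1 and M2 splice forms of Pkm.

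Gapdh, glyceraldehyde 3-phosphate dehydrogenase, which is often taken as a reference gene, was counted at a very low level in every lung. It was 0.476 to 0.877 against 0.321 to 3.68 FPKM, from 25 to 291 fragments, while its neighbours Tpi1 and Pgk1 lay at 25.3 to 46.7 FPKM. Sham lungs 3 and 4, at 2.02 and 3.68 FPKM, stood above the other 8 lungs. The log2 fold change of -0.57 had an SE of 0.55 and was not called (limma adjusted p = 0.462). Of the 1420 bases of its longest coding transcript in GENCODE M21, 86.1% lay in stretches of at least 75 bases that occur identically in transcripts of 120 other genes. How the authors treated fragments that match several places is not given in the sources used here. The same figure was 85.0% for Eno1 with 5 other genes, 68.8% for Pgk1 with 4, 53.9% for Pkm with 3, 43.1% for Pgam1 with 2, 17.0% for Ldha with 4 and 11.6% for Tpi1 with 2. This figure was 48.3% for Pdhb, 38.5% for Ldhb, 35.5% for Gpi1, 25.6% for Pfkfb2 and 21.3% for Pdha1, with 1 or 2 other genes each. Such stretches occurred in 19 of the 37 entries and filled at least 20% of the transcript in 10. The levels of genes with such stretches are thus uncertain where other genes could share their fragments. Of their copies, Eno1b was 1.57 ± 0.311 against 1.43 ± 0.219 FPKM, Pgam1-ps2 1.13 ± 0.253 against 1.19 ± 0.411 FPKM and Tpi-rs11 1.64 ± 0.721 against 1.503 ± 0.451 FPKM (SD, n = 5 each), and none of the 3 was called.

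Lactate dehydrogenase joins A and B subunits, of which A favours lactate formation. Ldha (ENSMUSG00000063229, chromosome 7 from 46841475 to 46855627) was 90.2, 86.8, 90.3, 86.6 and 87.0 FPKM in IncPBF lungs 1 to 5 and 61.8, 72.0, 72.0, 73.5 and 65.3 FPKM in sham lungs 1 to 5. The groups lay well apart, and the IncPBF lungs were closer together than the sham lungs. Ldha rose by 0.36 on the log2 scale (SE 0.06, limma adjusted p = 0.000886, exact permutation p = 0.00794), and by 0.32 to 0.38 with each lung left out. Ldhb was 33.3 to 39.3 FPKM in the IncPBF lungs but 21.2 to 52.9 FPKM in the sham lungs, with sham lung 5 lowest and sham lung 3 highest. Its log2 fold change was 0.06 (limma adjusted p = 0.851) and turned to -0.13 without sham lung 5. The Ldha share of the summed FPKM of both was 70.7% ± 1.58 against 65.9% ± 7.21, and the groups overlapped.

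Lactate crosses the membrane by MCT1, which serves uptake and release, and MCT4, which has a low affinity and serves release from glycolytic cells. Slc16a3, the MCT4 gene (ENSMUSG00000025161, chromosome 11 from 120948480 to 120960868), was 1.96, 1.76, 2.14, 1.94 and 1.55 FPKM in the IncPBF lungs and 1.16, 1.20, 1.39, 1.07 and 1.03 FPKM in the sham lungs. The groups did not overlap, and Slc16a3 rose by 0.63 on the log2 scale (SE 0.12, limma adjusted p = 0.00224). Slc16a1, the MCT1 gene, was 4.37 to 6.29 FPKM against 4.90 to 8.29 FPKM, a log2 fold change of -0.27 that was not called (limma adjusted p = 0.132) except without sham lung 3 (adjusted p = 0.0231). Slc16a3 made up 25.9% ± 4.19 of the FPKM of both genes against 15.4% ± 4.13 (SD, n = 5 each), with overlap of the groups.

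The subunits of pyruvate dehydrogenase overlapped between the groups while its kinases moved. Pdha1, the catalytic alpha subunit on chromosome X, was 32.3 ± 2.81 against 34.0 ± 2.08 FPKM, and Pdhb, the beta subunit, was 19.3 ± 1.09 against 18.7 ± 1.02 FPKM (SD, n = 5 each). Neither was called, and the sign of Pdha1 turned from -0.08 to 0.00044 with an equal total per lung. Pdk4 (ENSMUSG00000019577, chromosome 6 from 5483351 to 5496309), the kinase that fasting and glucocorticoids are known to induce, was 2.30, 1.91, 2.02, 1.95 and 3.35 FPKM in IncPBF lungs 1 to 5. In sham lungs 1 to 5 it was 14.6, 10.4, 11.2, 7.70 and 14.4 FPKM. The highest IncPBF lung was lung 5 and the lowest sham lung was lung 4, and the gap between them exceeded the whole spread of the IncPBF lungs. The ratio of the group means was 0.198, and the log2 fold change was -2.28 (SE 0.19, limma adjusted p = 1.96e-05, exact permutation p = 0.00794). It lay between -2.42 and -2.19 with each lung left out, and was -2.22 with log2 Xist FPKM as a covariate. The values rest on 118 to 921 fragments per lung.

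Pdk2, the most widely expressed of these kinases (ENSMUSG00000038967, chromosome 11 from 95026258 to 95041354), was 12.2, 13.3, 13.8, 11.9 and 13.6 FPKM in the IncPBF lungs and 16.1, 18.1, 15.6, 16.9 and 20.3 FPKM in the sham lungs. All 5 IncPBF lungs were below all 5 sham lungs, and Pdk2 fell by 0.42 on the log2 scale (SE 0.08, limma adjusted p = 0.00207). Pdk1, a kinase known as a target of hypoxia-inducible factor, was 3.73, 4.04, 3.51, 3.49 and 3.94 FPKM against 4.76, 3.89, 4.40, 4.22 and 4.58 FPKM. It fell by 0.22 (limma adjusted p = 0.0394), but the call was lost without IncPBF lung 1, 3 or 4, without sham lung 1, 3, 4 or 5, and with an equal total per lung. Pdk3, on chromosome X, was 10.4, 8.52, 9.09, 9.64 and 9.05 FPKM against 8.31, 7.67, 7.92, 8.66 and 8.21 FPKM. It rose by 0.19 (limma adjusted p = 0.0350), with IncPBF lung 1 the highest of all 10 lungs. Its call was lost without IncPBF lung 1, 3 or 4 or without sham lung 1, 2, 3 or 5. Of the 4 kinases, 3 were thus lower and 1 higher in the IncPBF group.

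The 4 kinases summed to 27.0 to 29.9 against 37.5 to 47.4 FPKM. Pdk4 made up 8.08% ± 1.78 of this sum against 27.8% ± 4.84 (SD, n = 5 each). The share of Pdk3 was 33.0% ± 2.86 against 19.8% ± 2.15, and that of Pdk1 was 13.2% ± 0.820 against 10.5% ± 0.809. The groups did not overlap in these 3 shares, while the share of Pdk2, 45.7% ± 2.50 against 41.9% ± 3.61, did overlap. Shares of a fixed whole move together, so a fall in Pdk4 raises the shares of the others. Over the 9 families with several isozymes, the share of 7 of the 24 isozymes did not overlap between the groups, namely Pfkl, Pfkm, Aldoa, Aldoc, Pdk1, Pdk3 and Pdk4. The shares of Aldoa and Aldoc are complements and count the same difference. Shares have no background over all genes here. In level, the groups did not overlap for 23.2% of all genes tested.

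**Figure D3:**
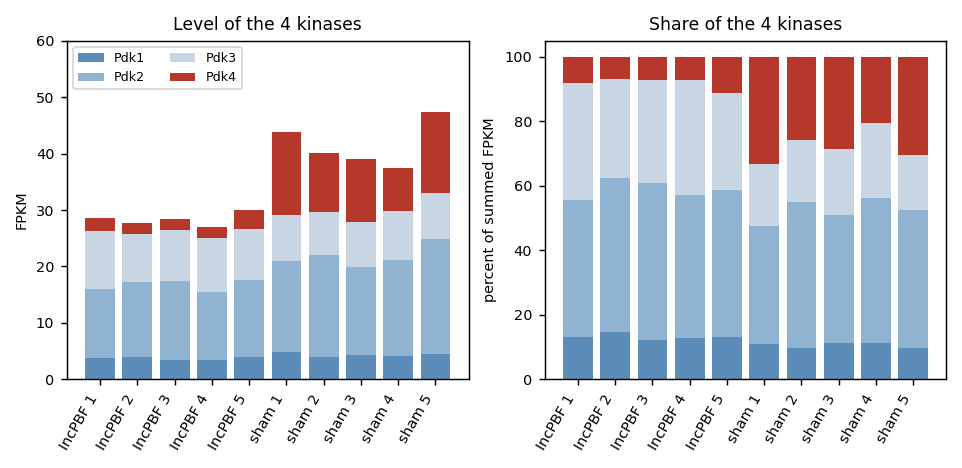
FPKM of the 4 pyruvate dehydrogenase kinase genes stacked for each lung (left) and their percent of the summed FPKM (right). Pdk4 (red) takes 6.90% to 11.2% of the sum in IncPBF lungs, and 20.5% to 33.3% in sham lungs.

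The pentose phosphate pathway has an oxidative arm, which makes NADPH, and a non-oxidative arm, which joins it to glycolysis. In the oxidative arm G6pdx, the first and rate-setting enzyme on chromosome X, was 12.3 ± 0.889 against 12.4 ± 1.36 FPKM. Pgd, which makes the second NADPH, was 17.7 ± 1.23 against 16.8 ± 0.714 FPKM (SD, n = 5 each). Neither was called, and the log2 fold change of G6pdx, -0.01, turned to 0.07 with an equal total per lung and to 0.01 after quantile normalization. In the non-oxidative arm Tkt (ENSMUSG00000021957, chromosome 14 from 30548359 to 30574720), transketolase, was 15.99, 15.2, 19.1, 16.4 and 16.3 FPKM in the IncPBF lungs and 13.2, 14.8, 14.1, 13.6 and 13.9 FPKM in the sham lungs. The groups did not overlap, and Tkt rose by 0.25 on the log2 scale (SE 0.06, limma adjusted p = 0.0119). Taldo1, transaldolase, was 51.9, 52.3, 57.4, 56.1 and 51.2 FPKM against 41.0, 50.4, 48.1, 51.0 and 46.6 FPKM. Its groups did not overlap either, but only by a narrow gap, and its log2 fold change of 0.18 missed the threshold (limma adjusted p = 0.0525). It was called without sham lung 4 (adjusted p = 0.0387), with an equal total per lung (0.0171), after quantile normalization (0.0287), with limma-voom (0.0492) and in the blocked fit (0.0424).

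**Figure D4:**
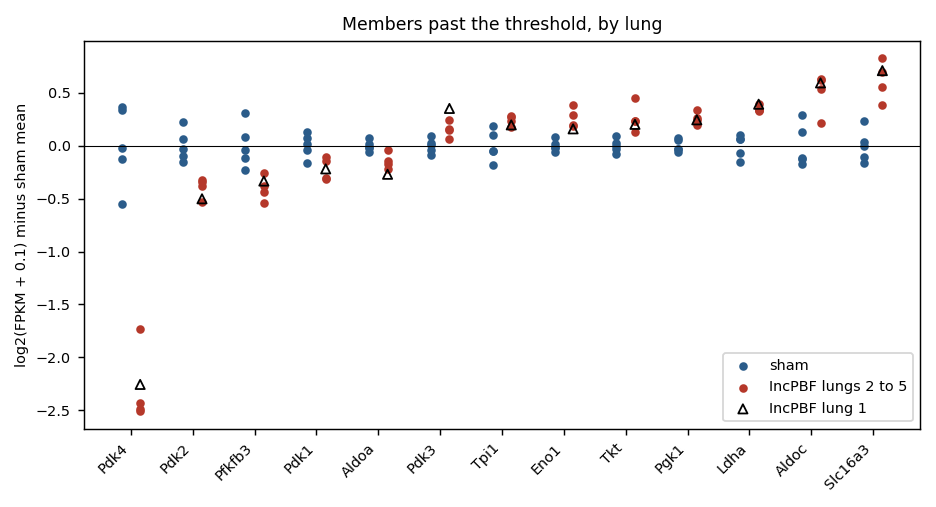
Log2(FPKM + 0.1) of the 13 called genes in each lung, minus the mean of the sham lungs (y axis), ordered by log2 fold change. Blue points are sham lungs, red points IncPBF lungs 2 to 5 and open triangles IncPBF lung 1. Lung 1 lies beyond the sham range in all 13 genes, and was itself among the lungs from which they were called.

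Neighbouring pathways were followed in lists of 108 genes, of which 96 were tested, 16 called higher and 17 called lower. These counts are close to the 16.1% higher and 16.2% lower of all genes tested, against which the counts of each list are to be read. Their median log2 fold change was 0.02. Among other genes of glycolysis and gluconeogenesis 2 of 19 tested were higher and 4 lower. Hkdc1, a hexokinase-like gene, fell by 0.80, Pfkfb1, the liver form of PFKFB, by 0.78 and Slc2a12, a glucose transporter gene, by 0.63 on the log2 scale, all at low group means of 0.455 to 1.81 FPKM. In pyruvate and lactate handling 3 of 25 were higher and 5 lower. Pdp1, the phosphatase that reverses the action of the pyruvate dehydrogenase kinases, was 4.93 ± 0.343 against 7.28 ± 0.704 FPKM (SD, n = 5 each), and fell by 0.55 on the log2 scale (limma adjusted p = 0.0004). Pdp2, the other catalytic form of this phosphatase, named here after its values were seen, was 2.36 ± 0.106 against 2.87 ± 0.391 FPKM (SD, n = 5 each) and was not called (limma adjusted p = 0.062). Slc16a7, the MCT2 gene, fell by 0.58 and Me1, the cytosolic malic enzyme that yields NADPH, rose by 0.43.

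Of the other pentose phosphate genes 0 of 11 tested were higher and 2 lower. H6pd, the glucose 6-phosphate dehydrogenase of the endoplasmic reticulum, was lower, 33.9 ± 3.43 against 58.7 ± 9.42 FPKM (log2 fold change -0.78, limma adjusted p = 0.00047), while its cytosolic relative G6pdx did not pass the test. Shpk, sedoheptulokinase, fell by 0.62. In glycogen metabolism 6 of 23 were higher and 4 lower. Gyg, which encodes the glycogenin that primes glycogen, was higher, 169 ± 13.99 against 101 ± 15.6 FPKM (log2 fold change 0.75, limma adjusted p = 0.00052). Ppp1r3c, a subunit that brings protein phosphatase to glycogen, rose by 0.89, and Pgm2l1, a relative of phosphoglucomutase, fell by 0.88. In the tricarboxylic acid cycle 5 of 18 were higher and 2 lower, with Suclg2 and Sdhc higher by 0.35 and 0.22 and Ogdh lower by 0.24.

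Cell type markers and proliferation genes also differed between the groups. The counts below are of called genes, and over all genes tested 16.1% were called higher and 16.2% lower. Markers of AT1 cells were lower in 8 of 10 genes, with sums of 1305 to 1414 against 1582 to 2188 FPKM. Markers of AT2 cells were lower in 6 of 9 (11550 to 14215 against 14123 to 17475 FPKM). Most of the AT2 sum was Sftpc, at 9583 to 11925 against 10934 to 14074 FPKM, which was not called (limma adjusted p = 0.358). Endothelial markers were lower in 6 and higher in 1 of 10 (1371 to 1457 against 1481 to 1875 FPKM). Proliferation genes were higher in 6 of 6 (37.5 to 46.1 against 13.9 to 26.1 FPKM), and smooth muscle and myofibroblast markers in 5 of 8 (319 to 616 against 116.8 to 252.3 FPKM). Erythroid genes were lower in 5 of 7 (253 to 1931 against 1466 to 2450 FPKM). Of the macrophage, neutrophil, cardiac, skeletal muscle and ciliated markers 0 were called. Of the adipocyte markers only Cidec was tested, and it was lower, at a mean of 1.28 against 2.59 FPKM. Adipoq, Plin1, Cidea and Ucp1 were under the filter, at group means of at most 0.294 FPKM, and their means were higher in the IncPBF group. No marker of any of these lists was at 0 in every lung. The part of these shifts in the differences of the glycolysis and pyruvate genes was not tested.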

How the data were processed

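Whole lungs at P14 were profiled by bulk RNA-sequencing, 5 per group. The authors made NEBNext Ultra libraries, sequenced them on a NovaSeq instrument and deposited FPKM with the gene length used. The submitters' processing notes list Bowtie 0.12.2 and the builds hg38, GRCm38 and mm10. The counting software and strand setting are not given in the sources used here. Gene positions matched GENCODE M21 on GRCm38 for 98.3% of shared genes. The columns of the IncPBF lungs are named by another abbreviation than the sample titles. They were assigned to the group and keep their column numbers here.

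Multiplying FPKM by gene length gave whole steps in every lung (100% of values, tolerance 0.01 fragments), from which the fragments were recovered. A fragment on 1 kb was 0.0482 to 0.058 FPKM. Without molecular identifiers, fragments may be copies of a molecule, so depth limits cover counting error only. Genes with a mean of at least 0.5 FPKM were fitted on log2(FPKM + 0.1) with limma 3.58.1 (lmFit, eBayes with trend) in R 4.3.3, with Benjamini-Hochberg adjustment over all genes tested. Single genes were also compared by exact two-sided permutation over all assignments of lungs to the groups. The lungs are separate samples, but nothing states separate litters, so p values measure the spread between these lungs.

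All 36 members are named, with the 3 largest called changes without overlap of the groups in each pathway list, the sex-linked genes Xist and Ddx3y, and expressed copies of members. The members and lists were chosen with earlier results of these data known. Alternatives were the pseudocount, filter, scaling, trend, a replicate block, log2 Xist as a covariate, limma-voom on fragments, and each lung left out. Sequences are from RefSeq on GRCm38.p6. Isozyme shares are percent of summed FPKM. Summaries used pandas 2.3.3 under Python 3.11.15, and plots matplotlib 3.10.9.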

Additional observations from a re-analysis of the deposited data

Results flagged for a closer look

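In 37 entries and 2 groups, 6 values lay far from the other 4 lungs of their group by Dixon's ratio, which chance alone gives in about 1 of 20 groups. All 6 were in the IncPBF group. IncPBF lung 5 was highest for Hk2 at 2.77 FPKM, with the next lung at 2.33 FPKM, and for Pdk4 at 3.35 FPKM, with the next at 2.30 FPKM. IncPBF lung 2 was lowest for Pfkfb2 at 3.59 FPKM, with the next lung at 4.28 FPKM, and for Aldoc at 0.72 FPKM, with the next at 0.924 FPKM. IncPBF lung 3 was highest for Pkm at 72.4 FPKM, with the next lung at 65.6 FPKM, and for Gapdh at 0.877 FPKM, with the next at 0.589 FPKM. Pdk4 in IncPBF lung 5 still lay below every sham lung.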

How the results depend on the processing

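Of the 13 called entries, 8 (Pfkfb3, Pgk1, Eno1, Ldha, Pdk2, Pdk4, Slc16a3 and Tkt) stayed called with each lung left out and under every alternative but log2 Xist as a covariate, under which only Pdk4 did, and 0 of the 13 changed sign under any alternative. With the covariate the log2 fold changes of Ldha, Pgk1, Pdk3 and Slc16a3 were 0.38, 0.24, 0.35 and 0.68, against 0.36, 0.26, 0.19 and 0.63 without it. With that covariate 0 entries were called higher and 1 lower, and 1 pathway gene higher and 5 lower, a fit in which IncPBF lung 1 alone parts sex-linked expression from group. With no filter on low values 3 entries were called lower, over 31400 genes tested. With an equal total per lung 3 entries were called lower and 25 pathway genes higher. With each lung left out, the entries called numbered 6 to 10 higher and 3 to 6 lower, and the pathway genes 10 to 16 higher and 14 to 18 lower, with 10 without IncPBF lung 4. The shares without overlap numbered 7 to 9. Signs turned for genes that were not called: Gpi1 to 0.058 and Pdha1 to 0.00044 with an equal total, G6pdx to 0.072 with an equal total and 0.010 after quantile normalization, and Pfkp to 0.0019 and Pdhb to -0.028 with the Xist covariate. With each lung left out Gpi1 ranged from -0.046 to 0.0025, Ldhb from -0.13 to 0.20 and G6pdx from -0.048 to 0.042. The cause was not tested. The numbers of the lungs did not pair them, since correlations of same-numbered deviations were -0.07 to 0.09; with the replicate block 9 entries were called higher and 4 lower, and 16 and 17 pathway genes. Depth limits Aldoc, Eno2, Hk3, the second Aldoa entry and Gapdh most.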
